A study of Mus musculus with 9 samples.

Results

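Transcripts of 10 transcription factors that carry T cell receptor signals to DNA were followed in mouse CD4 T cells cultured as induced regulatory T cells (iTreg) and in conventional T cells. They were the AP-1 genes Fos, Fosb, Fosl2, Jun, Junb and Jund, the related gene Batf, the interferon regulatory factor gene Irf4 and the NFAT genes Nfatc1 and Nfatc2. Members were taken by gene symbol from the platform annotation, which gave 10 of the 18193 named genes and 23 of the 45037 probe sets. The probe set with the highest mean over the 9 arrays gives each gene's main value, and the others serve as a check. No filter on low values was applied, so all 10 were tested.

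Expression was measured as log2 values on 9 Affymetrix whole-genome arrays, 3 in each of 3 groups, which the design text describes as biological replicates. The cells came from spleens of Foxp3EGFP mice on a C57BL/6 (B6) background, whose green reporter marks expression of Foxp3, the factor that defines regulatory T cells. CD4+EGFP– cells, which lacked the reporter, were sorted and grown for 72 hours on plates coated with anti-CD3 at 2.5 µg/ml, and the medium held anti-CD28 at 1 µg/ml and IL2 at 100 U/ml. In the pltTGFβ_iTreg group TGFβ came in freeze-thawed lysate of platelets from wild-type mice, which also holds the other contents of platelets. In the purTGFβ_iTreg group it was purified TGFβ1 at 5 ng/ml. The third group, Tconv, is the baseline. How it was treated is not settled, because the treatment text given for every sample states that Tconv cells received TGFβ1, and no culture without TGFβ is described. Whether iTreg cells were sorted on the reporter before RNA was extracted is not stated either.

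A difference is termed called, risen or fallen where it passed a limma fit of all probe sets at a Benjamini-Hochberg adjusted p under 0.1 together with a log2 change beyond 0.5 either way. Both thresholds are in the authors' design text, which states the second both as a log2 ratio of 0.5 and as a 1.4-fold difference. An exact 1.4-fold is slightly lower, 0.485 on the log2 scale, and 3 member values lay between these limits, as given with each of them.

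AP-1 is a dimer of proteins that hold DNA through a basic region and a leucine zipper. FOS proteins pair with JUN proteins, and JUN proteins also pair with each other or with BATF, which has no activation domain of its own. When the T cell receptor is engaged, calcium activates the phosphatase calcineurin, which lets NFAT proteins enter the nucleus, while MAP kinases induce and activate AP-1. NFAT and AP-1 bind side by side at cytokine genes, and BATF with a JUN protein binds beside IRF4 in activated T cells. These proteins are also controlled by phosphorylation, location and choice of partner, which arrays do not measure.

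The members whose main value was called in at least 1 comparison were Jun, Junb, Batf and Fosl2, and their promoters are shown so that the transcripts can be read beside the DNA in front of them. Each sequence is the 250 bases before the start, from RefSeq on build GRCm38.p6, written 5′ to 3′ on the gene's strand. Capitals mark matches on either strand to 3 motifs, which are TGANTCA (the AP-1 site), TGACNTCA (the CRE-like site, which dimers of c-Jun and ATF2 bind) and GGAAA (the NFAT core).
Jun, chr4:95052223-95052472, minus strand: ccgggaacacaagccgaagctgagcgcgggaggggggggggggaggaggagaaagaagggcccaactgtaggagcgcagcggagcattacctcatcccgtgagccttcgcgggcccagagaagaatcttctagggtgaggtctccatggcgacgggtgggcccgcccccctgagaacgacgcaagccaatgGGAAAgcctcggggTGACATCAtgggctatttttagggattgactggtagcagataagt
Junb, chr8:84978749-84978998, minus strand: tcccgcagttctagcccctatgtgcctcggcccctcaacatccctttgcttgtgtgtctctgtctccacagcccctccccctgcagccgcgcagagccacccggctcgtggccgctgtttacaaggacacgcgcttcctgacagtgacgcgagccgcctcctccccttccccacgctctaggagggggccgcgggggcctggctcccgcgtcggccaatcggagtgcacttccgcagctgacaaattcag
Batf, chr12:85686470-85686719, plus strand: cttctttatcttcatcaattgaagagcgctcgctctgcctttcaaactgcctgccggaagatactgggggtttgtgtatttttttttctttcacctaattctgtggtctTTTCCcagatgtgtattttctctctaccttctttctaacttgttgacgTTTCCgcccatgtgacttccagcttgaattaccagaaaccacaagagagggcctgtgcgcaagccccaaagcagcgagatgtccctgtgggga
Fosl2, chr5:32136222-32136471, plus strand: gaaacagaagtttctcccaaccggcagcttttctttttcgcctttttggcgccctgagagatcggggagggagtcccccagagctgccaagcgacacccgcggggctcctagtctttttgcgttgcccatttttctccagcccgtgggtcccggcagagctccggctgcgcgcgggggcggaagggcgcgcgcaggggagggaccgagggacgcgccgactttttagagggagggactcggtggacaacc
The Jun window held 1 CRE-like site, starting 45 bases before the start, and 1 NFAT core, starting 59 bases before it. The Batf window held 2 NFAT cores, starting 141 and 93 bases before the start. None of these letters were found in the Junb and Fosl2 windows, and no matches overlapped. Of all 32851 RefSeq windows of that length, 6.75% held TGANTCA, 7.49% held TGACNTCA and 55.6% held GGAAA. A match is a run of letters, and binding was not measured.

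Some facts of the whole series touch the comparisons. Arrays correlated at 0.994 to 0.998 within groups and 0.956 to 0.995 between groups (Pearson, across probe sets, which are not independent). Xist, which coats the inactive X chromosome of female cells, read 3.37 to 3.99 on iTreg arrays and 10.63 to 10.94 on Tconv arrays, and the Y-linked Eif2s3y read 8.82 to 9.18 on iTreg arrays and 2.59 to 2.82 on Tconv arrays. Donor sex therefore cannot be told apart from either comparison with Tconv, while none of the 4 sex-linked transcripts examined was called between the iTreg groups.

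The cell labels were checked with marker lists. The mean of 8 measured T cell markers was 10.36 to 10.41 on pltTGFβ_iTreg arrays, 10.20 to 10.28 on purTGFβ_iTreg arrays and 10.43 to 10.60 on Tconv arrays. In pltTGFβ_iTreg against Tconv 4 of the 8 were called, Cd2 and Cd28 higher and Cd5 and Cd4 lower. In purTGFβ_iTreg against Tconv 3 were called, all lower (Cd247, Cd5 and Cd4), and between the iTreg groups limma called 0, with 3 at an unadjusted p under 0.05. The mean of 5 regulatory T cell markers was 7.30 to 7.38, 7.48 to 7.58 and 5.91 to 5.97 in the same order of groups. Il2ra, Ctla4 and Ikzf2 rose in pltTGFβ_iTreg by 1.73, 2.36 and 2.48 on the log2 scale, and in purTGFβ_iTreg by 1.68, 1.86 and 3.00, where Itgae also rose, by 1.46. Between the iTreg groups Ctla4 was higher in pltTGFβ_iTreg by 0.51, and Ikzf2 and Itgae differed by -0.52 and -1.18. Foxp3, the fifth of the list, averaged 3.86 in pltTGFβ_iTreg, 3.77 in purTGFβ_iTreg and 3.79 in Tconv, below every array's median over all probe sets (4.46 to 4.56), and was called in no comparison.

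Markers of other cells were measured as well. The mean of 5 B cell markers was 5.24 to 5.48 on pltTGFβ_iTreg arrays, 5.34 to 5.53 on purTGFβ_iTreg arrays and 5.58 to 5.64 on Tconv arrays. Cd79b was lower in pltTGFβ_iTreg and purTGFβ_iTreg than in Tconv (-1.65 and -1.46) and Ighm higher (0.65 and 0.82). In the same order of groups, with Tconv last, Cd79b averaged 4.37, 4.56 and 6.02 and Ighm 10.98, 11.16 and 10.34. Group means of Cd79a, Ms4a1 and Pax5 were 3.56 to 4.24 with no call. The mean of 5 CD8 and NK cell markers was 5.90 to 5.96, 5.97 to 6.03 and 6.17 to 6.23 in the same order. Of these Cd8b1 alone was called, lower in both iTreg groups than in Tconv (-1.04 and -0.98). It averaged 5.71, 5.78 and 6.75, Cd8a 4.31, 4.46 and 4.51, and Nkg7 10.73, 10.94 and 10.62. Klrk1 averaged 5.37, 5.07 and 5.21, and Ncr1 3.55, 3.78 and 3.86. The mean of 2 red cell precursor markers was 3.67 to 3.77, 3.54 to 3.79 and 3.99 to 4.13, and Klf1 was called lower in both iTreg groups (-0.64 and -0.56). Between the iTreg groups limma called 0 of these B cell, CD8 and NK, and red cell markers, with 1, 0 and 0 at an unadjusted p under 0.05. The mean of 6 myeloid markers was 3.84 to 3.91 on pltTGFβ_iTreg arrays, 3.77 to 3.92 on purTGFβ_iTreg arrays and 3.99 to 4.23 on Tconv arrays, and limma called 0 of them, with an unadjusted p under 0.05 for 4, 4 and 0 of the 6 in pltTGFβ_iTreg against Tconv, purTGFβ_iTreg against Tconv and pltTGFβ_iTreg against purTGFβ_iTreg. The mean of 5 platelet markers was 4.52 to 4.66, 4.10 to 4.28 and 5.06 to 5.10 in the same order. Pf4 and Ppbp averaged 3.32 at most, while Itga2b averaged 6.14, 6.11 and 6.75, Gp9 4.89, 4.93 and 5.26, and Itgb3 6.03, 4.28 and 7.29. Pf4 and Ppbp were each higher in pltTGFβ_iTreg than in purTGFβ_iTreg by 0.25, and neither was called (limma unadjusted p = 0.0308 and 0.0321, limma adjusted p = 0.247 and 0.254). Of these 5 only Itgb3 was called between the iTreg groups (higher in pltTGFβ_iTreg by 1.75 on the log2 scale), and Itgb3 and Itga2b were called lower in both iTreg groups than in Tconv. These marker values differ in the comparisons with Tconv, and Itgb3, Ctla4, Ikzf2 and Itgae also between the iTreg groups. Their part in the results was not tested, and fewer cells of a type cannot be told apart from less RNA per cell.

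Jun rose in both iTreg groups relative to Tconv, while Junb and Batf fell in both and Fosl2 fell in purTGFβ_iTreg. Jun also differed between the iTreg groups, with the lower level in pltTGFβ_iTreg. In pltTGFβ_iTreg against Tconv 3 of 10 members were called, 1 higher and 2 lower, where 28.5% of all genes were called, 13.9% higher and 14.7% lower. In purTGFβ_iTreg against Tconv 4 of 10 were called, 1 higher and 3 lower, where 29.3% of all genes were called, 14.5% higher and 14.9% lower. Both shares of members were near those of all genes. Between the iTreg groups 1 of 10 was called, lower in pltTGFβ_iTreg, where 4.11% of all genes were called, 1.54% higher and 2.57% lower.

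Median log2 changes of the 10 members were 0.10 for pltTGFβ_iTreg against Tconv, -0.13 for purTGFβ_iTreg against Tconv and 0.21 for pltTGFβ_iTreg against purTGFβ_iTreg. Over all genes they were -0.16, -0.17 and 0.01. Both comparisons with Tconv use the same 3 Tconv arrays. Without the fold cutoff, 7 members passed in pltTGFβ_iTreg against Tconv (60.4% of all genes), 7 in purTGFβ_iTreg against Tconv (63.4%) and 3 in pltTGFβ_iTreg against purTGFβ_iTreg (9.72%). The members that this added against Tconv were Jund, Irf4 and Nfatc2 in both comparisons and Fosl2 in pltTGFβ_iTreg, and between the iTreg groups they were Junb and Batf. At an exact 1.4-fold, a reading tried after the data were seen, 4 members passed in pltTGFβ_iTreg against Tconv (29.7% of all genes), 5 in purTGFβ_iTreg against Tconv (30.4%) and 2 in pltTGFβ_iTreg against purTGFβ_iTreg (4.38%).

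**Figure D1:**
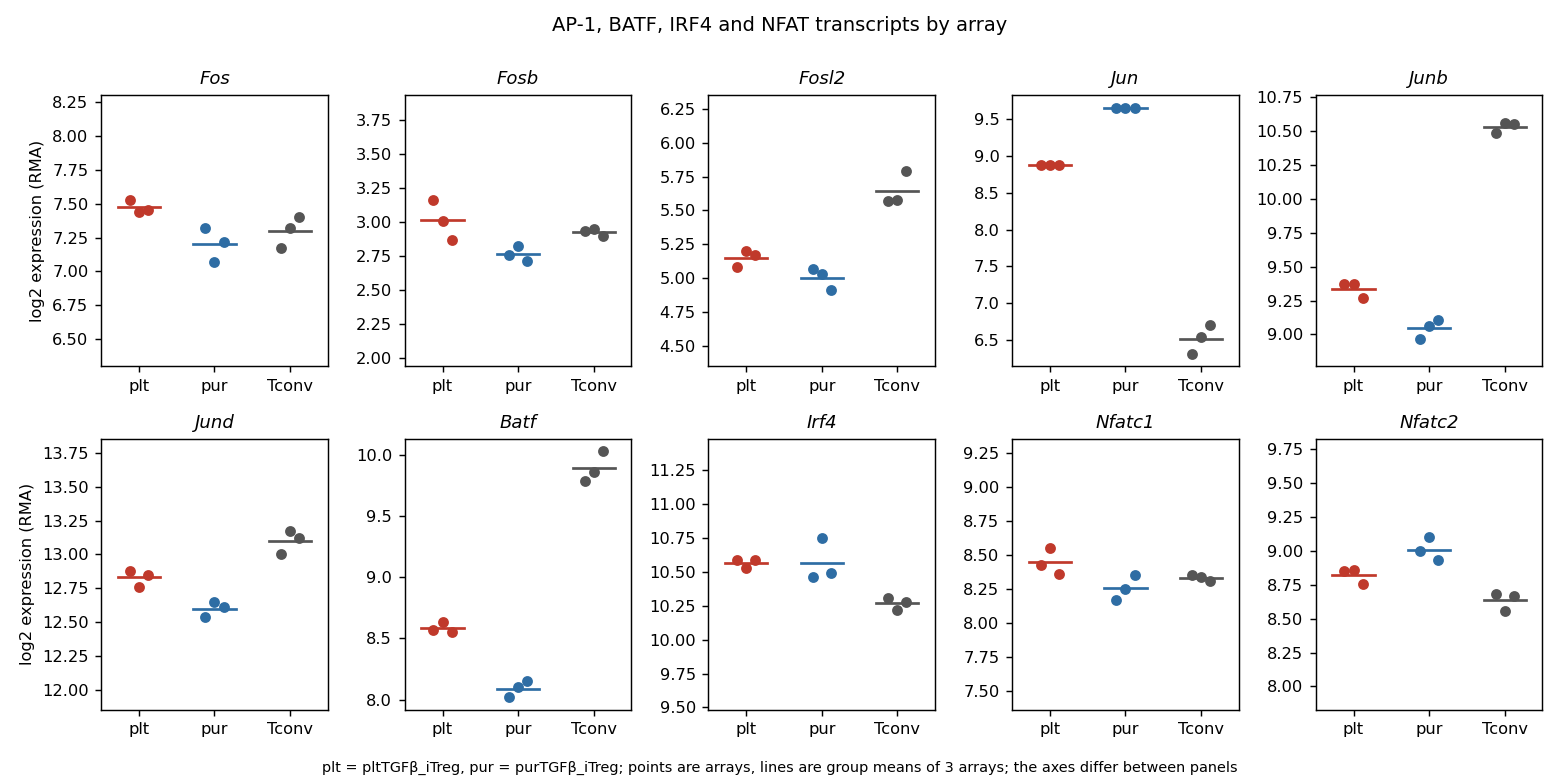
The log2 expression (y axis) of the 10 factors is plotted by group (x axis: plt for pltTGFβ_iTreg, pur for purTGFβ_iTreg, and Tconv), with 1 point per array and a line at the mean of 3 arrays. Jun is higher on every iTreg array than on every Tconv array, and Junb, Batf, Jund and Fosl2 are lower.

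Jun encodes c-Jun, a strong activator and the substrate for which the kinase JNK is named. It read 8.88 on each of the 3 pltTGFβ_iTreg arrays, 9.65, 9.66 and 9.66 on the purTGFβ_iTreg arrays, and 6.31, 6.54 and 6.71 on the Tconv arrays. No groups overlapped, purTGFβ_iTreg was highest and Tconv lowest. Relative to Tconv, Jun rose 5.12-fold in pltTGFβ_iTreg (log2 change 2.35 ± 0.10, SE, limma adjusted p = 1.04e-08) and 8.77-fold in purTGFβ_iTreg (3.13 ± 0.10, SE, limma adjusted p = 7.36e-10). Between the iTreg groups it was 1.71-fold lower in pltTGFβ_iTreg (log2 change -0.78, 95% interval -0.99 to -0.57, limma adjusted p = 0.000533).

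The second Jun probe set was dimmer and was called in the same directions. It read 6.47, 6.47 and 6.46 in pltTGFβ_iTreg, 7.35, 7.25 and 7.35 in purTGFβ_iTreg, and 5.61, 5.17 and 5.26 in Tconv. The groups were again separate and in the same order. Its log2 changes were 1.12 and 1.97 for pltTGFβ_iTreg and purTGFβ_iTreg against Tconv and -0.85 for pltTGFβ_iTreg against purTGFβ_iTreg (SE 0.11, limma adjusted p = 4.98e-06, 4.99e-08 and 0.000592). The 3 equal values of the main Jun probe set stand in the deposited table, where all 3 pltTGFβ_iTreg values were equal for 0.8% of probe sets. The spread of such values understates the error, and the SE given here comes from the fit, which borrows variance from all probe sets.

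Junb encodes JunB, a weaker activator that can oppose c-Jun and is a partner of BATF. It read 9.37, 9.37 and 9.27 in pltTGFβ_iTreg and 8.97, 9.06 and 9.11 in purTGFβ_iTreg, against 10.49, 10.56 and 10.55 in Tconv. No groups overlapped, and Tconv was highest, the reverse of Jun. Junb was 2.29-fold lower in pltTGFβ_iTreg (log2 change -1.19 ± 0.08, SE, limma adjusted p = 2.12e-07) and 2.81-fold lower in purTGFβ_iTreg (-1.49 ± 0.08, SE, limma adjusted p = 3.41e-08) than in Tconv. The difference between the iTreg groups was 0.29 (95% interval 0.13 to 0.46, limma adjusted p = 0.0478), under the fold cutoff.

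Jund encodes JunD, which many resting cells also hold. It read 12.88, 12.76 and 12.85 in pltTGFβ_iTreg, 12.54, 12.65 and 12.61 in purTGFβ_iTreg, and 13.00, 13.17 and 13.12 in Tconv. The groups did not overlap, with Tconv highest and purTGFβ_iTreg lowest, but no difference passed the log2 cutoff of 0.5. The log2 change was -0.27 ± 0.08 in pltTGFβ_iTreg (SE, limma adjusted p = 0.0176) and -0.50 ± 0.08 in purTGFβ_iTreg (SE, limma adjusted p = 0.000332) against Tconv. The unrounded value in purTGFβ_iTreg, -0.499, missed the log2 cutoff but passed an exact 1.4-fold. A much dimmer Jund probe set had changes of -0.32 and -0.34, also not called. The main Jund probe set differed between the iTreg groups by 0.23 (95% interval 0.05 to 0.41, limma adjusted p = 0.16).

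Fos, the immediate early gene of c-Fos, did not pass in any comparison. It read 7.53, 7.44 and 7.45 in pltTGFβ_iTreg, 7.32, 7.07 and 7.22 in purTGFβ_iTreg, and 7.17, 7.32 and 7.40 in Tconv. The purTGFβ_iTreg and Tconv arrays overlapped, and the pltTGFβ_iTreg arrays lay just above both. The 95% interval of the log2 change was -0.02 to 0.38 in pltTGFβ_iTreg and -0.29 to 0.11 in purTGFβ_iTreg against Tconv, and 0.07 to 0.47 for pltTGFβ_iTreg against purTGFβ_iTreg (limma adjusted p = 0.132, 0.447 and 0.15).

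Fosb, a close relative of Fos, read 3.16, 3.01 and 2.87 in pltTGFβ_iTreg, 2.76, 2.82 and 2.71 in purTGFβ_iTreg, and 2.93, 2.95 and 2.90 in Tconv. All 9 values lay below the lower quartile of all probe sets on every array (3.19 to 3.36). The pltTGFβ_iTreg and Tconv arrays overlapped, while the purTGFβ_iTreg arrays lay below both. The log2 change was 0.09 (95% interval -0.10 to 0.28) in pltTGFβ_iTreg and -0.16 (-0.36 to 0.03) in purTGFβ_iTreg against Tconv, and 0.25 (0.06 to 0.44) for pltTGFβ_iTreg against purTGFβ_iTreg. Fosb was called in no comparison. The limma adjusted p was 0.445 and 0.142 for pltTGFβ_iTreg and purTGFβ_iTreg against Tconv and 0.159 between them.

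Fosl2 encodes Fra-2, a FOS protein without a strong activation domain, and its 2 probe sets disagreed on the iTreg groups. The main one read 5.08, 5.20 and 5.17 in pltTGFβ_iTreg, 5.07, 5.03 and 4.91 in purTGFβ_iTreg, and 5.57, 5.58 and 5.79 in Tconv. Every iTreg array was below every Tconv array. It was 1.57-fold lower in purTGFβ_iTreg than in Tconv (log2 change -0.65 ± 0.09, SE, limma adjusted p = 9.26e-05), and the change in pltTGFβ_iTreg of -0.50 ± 0.09 (SE, limma adjusted p = 0.000727), unrounded -0.497, missed the log2 cutoff but passed an exact 1.4-fold. Its difference between the iTreg groups was 0.15 (95% interval -0.04 to 0.34, limma adjusted p = 0.499).

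The other Fosl2 probe set, whose mean over the arrays was 5.26 against 5.27 for the main one, separated all groups. It read 5.49, 5.36 and 5.47 in pltTGFβ_iTreg, 4.27, 3.99 and 4.57 in purTGFβ_iTreg, and 6.10, 6.14 and 5.99 in Tconv. Tconv was highest and purTGFβ_iTreg lowest by far. It was 1.55-fold lower in pltTGFβ_iTreg (limma adjusted p = 0.00156) and 3.48-fold lower in purTGFβ_iTreg (limma adjusted p = 3.70e-07) than in Tconv. It was 2.25-fold higher in pltTGFβ_iTreg than in purTGFβ_iTreg (log2 change 1.17, 95% interval 0.89 to 1.44, limma adjusted p = 0.000195). Which of the 2 follows the Fosl2 transcript better was not tested.

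Batf encodes BATF, which mouse T helper 17 and follicular helper cells require. It read 8.57, 8.63 and 8.55 in pltTGFβ_iTreg and 8.02, 8.10 and 8.15 in purTGFβ_iTreg, against 9.78, 9.86 and 10.03 in Tconv. The groups were separate, Tconv highest and purTGFβ_iTreg lowest. Batf was 2.48-fold lower in pltTGFβ_iTreg (log2 change -1.31 ± 0.09, SE, limma adjusted p = 2.57e-07) and 3.49-fold lower in purTGFβ_iTreg (-1.80 ± 0.09, SE, limma adjusted p = 1.98e-08) than in Tconv. The difference between the iTreg groups, 0.49 (95% interval 0.30 to 0.68, limma adjusted p = 0.00532), missed the log2 cutoff of 0.5 but passed an exact 1.4-fold. It was also called at the log2 cutoff without pltTGFβ_iTreg replicate 3 (0.51), without purTGFβ_iTreg replicate 3 (0.52) and after quantile normalization (0.51).

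Irf4 encodes IRF4, which receptor signals induce and which binds with BATF. It read 10.59, 10.53 and 10.59 in pltTGFβ_iTreg, 10.46, 10.75 and 10.49 in purTGFβ_iTreg, and 10.31, 10.22 and 10.28 in Tconv. The iTreg groups overlapped each other and both lay above Tconv, by less than the fold cutoff. The log2 change was 0.30 ± 0.09 in pltTGFβ_iTreg (SE, limma adjusted p = 0.0174) and 0.29 ± 0.09 in purTGFβ_iTreg (SE, limma adjusted p = 0.019) against Tconv. A second Irf4 probe set differed by -0.03 (95% interval -0.25 to 0.19) and 0.00 (-0.22 to 0.22). The main probe set differed between the iTreg groups by 0.01, with a 95% interval of -0.19 to 0.20.

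Nfatc1 encodes NFATc1, made in short and long forms through alternative promoters and polyadenylation sites, and its 5 probe sets disagreed. The main one read 8.43, 8.55 and 8.36 in pltTGFβ_iTreg, 8.17, 8.25 and 8.35 in purTGFβ_iTreg, and 8.35, 8.34 and 8.31 in Tconv, and was called in no comparison. Another, with a mean of 8.31 against 8.35 for the main one, read 8.55, 8.38 and 8.23 in pltTGFβ_iTreg, 7.61, 7.97 and 7.67 in purTGFβ_iTreg, and 8.56, 8.90 and 8.95 in Tconv. By that probe set every purTGFβ_iTreg array lay below all others. It was 2.08-fold lower in purTGFβ_iTreg than in Tconv (log2 change -1.06 ± 0.13, SE, limma adjusted p = 4.55e-05) and 1.56-fold higher in pltTGFβ_iTreg than in purTGFβ_iTreg (0.64 ± 0.13, SE, limma adjusted p = 0.0148).

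All 4 of the other Nfatc1 probe sets fell in purTGFβ_iTreg relative to Tconv, with log2 changes of -0.96, -0.96, -1.03 and -1.06. Their changes in pltTGFβ_iTreg were -0.30 to -0.58, of which the last alone was called. Relative to purTGFβ_iTreg, 3 of the 4 were called higher in pltTGFβ_iTreg (0.62, 0.64 and 0.66), and the remaining one differed by 0.45 (limma adjusted p = 0.0178). Which form of the transcript each probe set reads was not analysed here.

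Nfatc2, the gene of the NFAT protein that resting T cells already hold, had 0 of 6 probe sets called by limma in any comparison, with 3, 3 and 1 of them at an unadjusted p under 0.05 in pltTGFβ_iTreg against Tconv, purTGFβ_iTreg against Tconv and pltTGFβ_iTreg against purTGFβ_iTreg. The main one read 8.85, 8.86 and 8.76 in pltTGFβ_iTreg, 9.0, 9.10 and 8.93 in purTGFβ_iTreg, and 8.68, 8.56 and 8.67 in Tconv. Every iTreg array was above every Tconv array. The log2 change against Tconv was 0.19 ± 0.08 in pltTGFβ_iTreg (SE, limma adjusted p = 0.0766) and 0.37 ± 0.08 in purTGFβ_iTreg (SE, limma adjusted p = 0.00261). The 5 dimmer probe sets had changes of the opposite sign, -0.41 to -0.02 in pltTGFβ_iTreg and -0.47 to -0.10 in purTGFβ_iTreg.

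**Figure D2:**
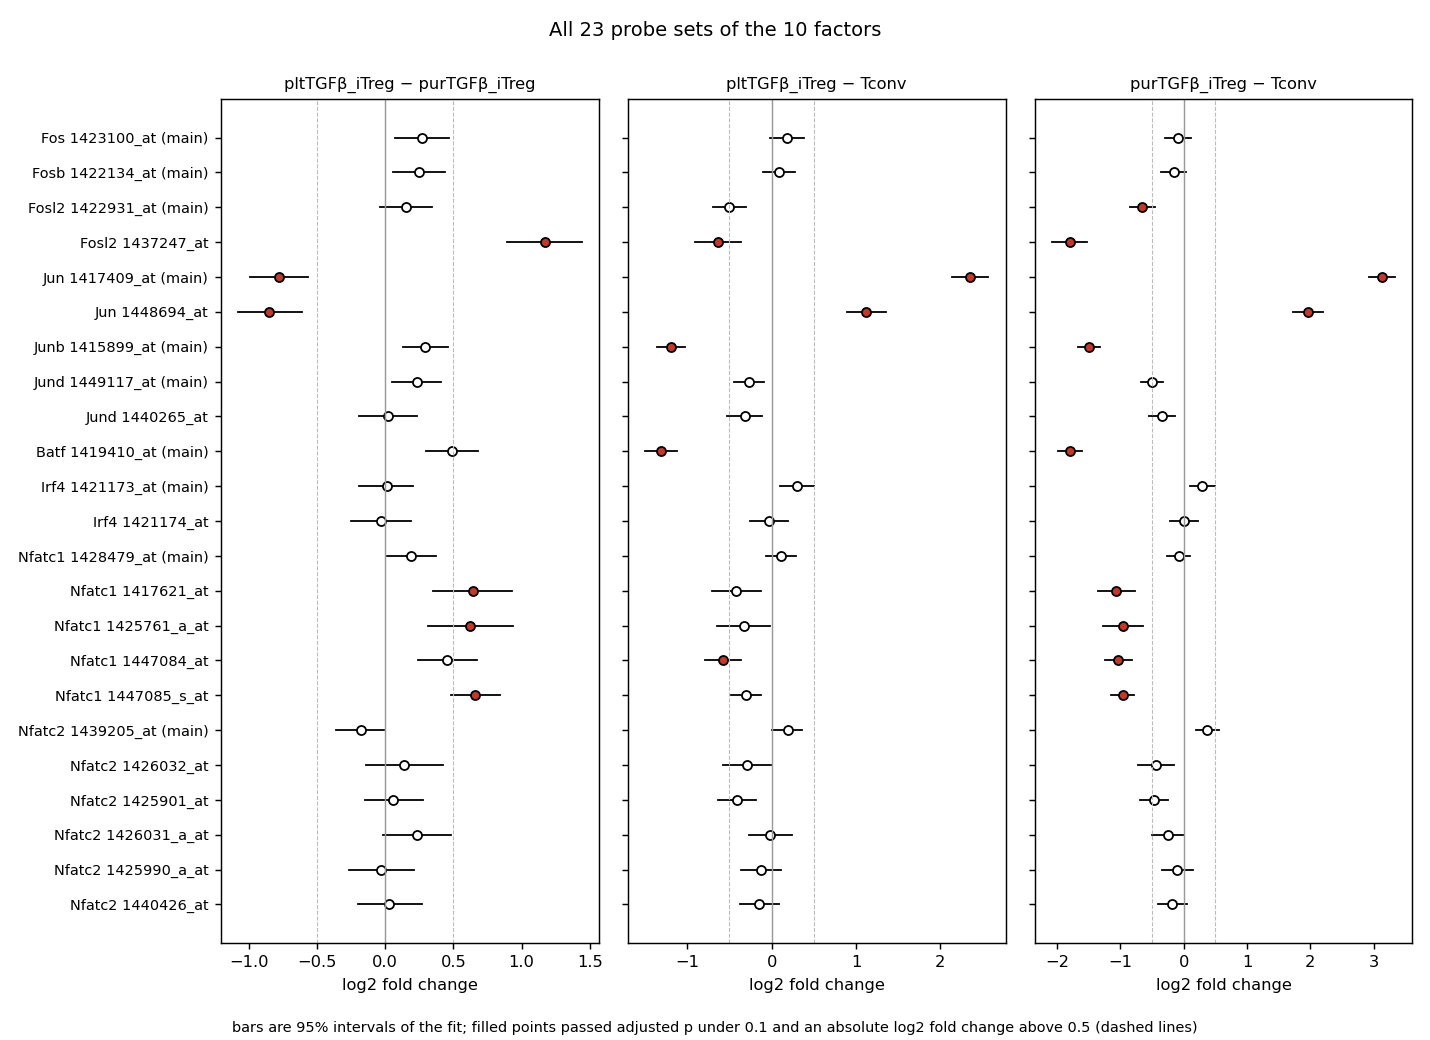
Log2 fold changes (x axis) of all 23 probe sets (rows) are drawn in 3 panels, for pltTGFβ_iTreg against purTGFβ_iTreg, pltTGFβ_iTreg against Tconv and purTGFβ_iTreg against Tconv, with 95% intervals and filled points for called probe sets. Both Jun probe sets are called in every panel, those of Fosl2 and Nfatc1 disagree among themselves, and no Nfatc2 probe set is called.

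Counted over probe sets, 6 of 23 were called in pltTGFβ_iTreg against Tconv, 2 higher and 4 lower, where 25.3% of all probe sets were called, 15.0% higher and 10.3% lower. In purTGFβ_iTreg against Tconv 10 of 23 were called, 2 higher and 8 lower, where 25.8% of all were called, 15.5% higher and 10.4% lower. Between the iTreg groups 6 of 23 were called, 4 higher and 2 lower in pltTGFβ_iTreg, where 3.25% of all were called, 1.16% higher and 2.09% lower. Probe sets of a gene share its transcript, so these last 6 come from 3 genes, Jun, Fosl2 and Nfatc1.

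The genes most like each called member were found by the root mean square difference over the 9 arrays on the log2 scale, after each gene's mean was removed. For Jun, whose own root mean square deviation was 1.34, they were Spin2c (difference 0.11), Tnfsf10 (0.13) and Rnf149 (0.15). Tnfsf10, the gene of the death ligand TRAIL, had log2 changes of 2.20 in pltTGFβ_iTreg and 2.98 in purTGFβ_iTreg against Tconv. For Junb (own deviation 0.65) they were Abcc1 (0.05), Chchd10 (0.06) and Snx9 (0.07). For Batf (own deviation 0.76) they were the chemokine gene Ccl5 (0.08), Gch1 (0.08) and Pter (0.09). For Fosl2 (own deviation 0.29) they were Mrps26, Litaf and Tdrp, each at 0.06.

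Relatives of the AP-1 genes went both ways. Of 12 other AP-1, ATF, BACH and small MAF genes, 6 were called in pltTGFβ_iTreg (3 higher, 3 lower) and 7 in purTGFβ_iTreg (3 higher, 4 lower) against Tconv, with a median log2 change of -0.17 in both. In the comparison of the iTreg groups 3 were called, all higher in pltTGFβ_iTreg. Of all genes, 28.5% were called in pltTGFβ_iTreg and 29.3% in purTGFβ_iTreg against Tconv, and 4.11% between the iTreg groups. Batf3, a close relative of Batf, read 7.20 on each pltTGFβ_iTreg array, 6.53, 6.54 and 6.55 in purTGFβ_iTreg, and 9.12, 9.17 and 9.12 in Tconv. As with Batf, the groups were separate with Tconv highest. Batf3 was 3.83-fold lower in pltTGFβ_iTreg (limma adjusted p = 4.27e-09) and 6.04-fold lower in purTGFβ_iTreg (limma adjusted p = 2.54e-10) than in Tconv. Atf3, a stress-induced partner of JUN proteins, was 2.96-fold higher in pltTGFβ_iTreg than in purTGFβ_iTreg (limma adjusted p = 1.28e-05) and lower in both than in Tconv. Atf3 read 7.35 on each pltTGFβ_iTreg array. As for Jun, the spread of such equal values of Batf3 and Atf3 understates the error. Atf2, whose protein pairs with c-Jun at CRE-like sites, rose 3.20-fold in pltTGFβ_iTreg and 3.48-fold in purTGFβ_iTreg relative to Tconv. Bach2, which encodes a repressor that competes for AP-1 sites, rose 2.78-fold and 2.47-fold in the same order. Dimmer Bach2 probe sets changed less, by 0.76 and 0.55 on the log2 scale in pltTGFβ_iTreg. In purTGFβ_iTreg they changed by 0.67 and 0.19, and the last was not called.

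A list of 12 genes held the other IRF and NFAT genes together with Spi1 and Spib, whose products pair with IRF4 in B cells. Against Tconv 1 was called in pltTGFβ_iTreg (higher) and 4 in purTGFβ_iTreg (3 higher, 1 lower), with medians of 0.00 and -0.05. The shares of all genes called were 28.5% and 29.3%. Between the iTreg groups, where 4.11% of all genes were called, limma called 0. There 2 had an unadjusted p under 0.05, and the unmoderated ANOVA contrast also called 0. Nfat5, an NFAT relative that does not need calcineurin, read 7.62, 7.57 and 7.62 in pltTGFβ_iTreg and 7.54, 7.57 and 7.50 in purTGFβ_iTreg, against 5.32, 5.38 and 5.37 in Tconv. It rose 4.74-fold (limma adjusted p = 1.77e-09) and 4.54-fold (limma adjusted p = 1.29e-09) by that probe set, while 5 dimmer ones changed by 0.06 to 1.67 and 0.17 to 1.73 on the log2 scale. Irf1 and Nfatc3 rose by 0.64 and 0.53 in purTGFβ_iTreg, where Irf7 fell by 0.50 (unrounded -0.5006), just past the cutoff. Irf7 averaged 3.80 in purTGFβ_iTreg and 4.30 in Tconv, below every array's median over all probe sets (4.46 to 4.56).

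**Figure D3:**
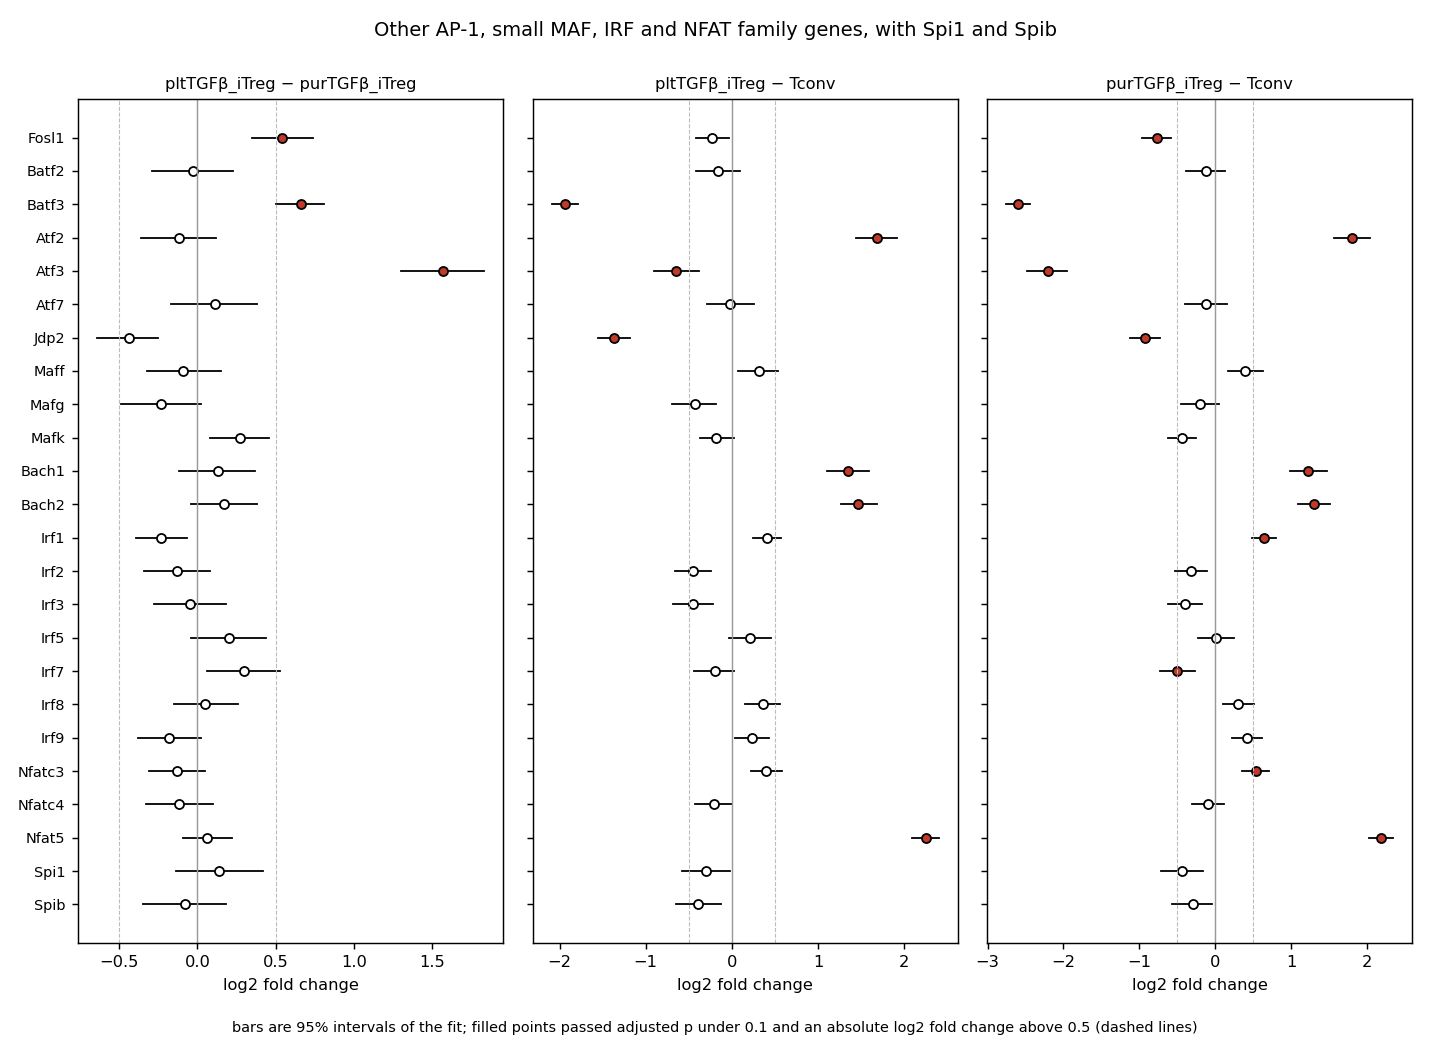
Log2 fold changes (x axis) of 24 further genes, relatives of the members and Spi1 and Spib (rows, 1 probe set each), are drawn for the same 3 comparisons, with 95% intervals and filled points for called genes. Batf3, Atf3 and Jdp2 lie below 0, and Atf2, Bach1, Bach2 and Nfat5 above 0, in both comparisons with Tconv.

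Upstream of NFAT, 9 of 20 measured calcium and calcineurin genes were called in pltTGFβ_iTreg (3 higher, 6 lower) and 11 in purTGFβ_iTreg (6 higher, 5 lower) against Tconv, and 4 between the iTreg groups (2 higher, 2 lower in pltTGFβ_iTreg). The shares of all genes called in these comparisons were 28.5%, 29.3% and 4.11%. Orai1, the pore of the store-operated calcium channel, was 1.93-fold lower in pltTGFβ_iTreg and 2.78-fold lower in purTGFβ_iTreg than in Tconv. Genes of the calcineurin catalytic subunit went opposite ways, with Ppp3cb 2.07-fold and 2.29-fold higher and Ppp3cc 1.88-fold and 2.73-fold lower in the same order.

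Upstream of AP-1, 6 of 12 measured MAP kinase pathway genes were called in pltTGFβ_iTreg (5 higher, 1 lower) and 7 in purTGFβ_iTreg (6 higher, 1 lower) against Tconv, and 1 between the iTreg groups (lower in pltTGFβ_iTreg). The shares of all genes called in these comparisons were 28.5%, 29.3% and 4.11%. Map3k7, the gene of the kinase TAK1, rose 2.92-fold in pltTGFβ_iTreg and 3.80-fold in purTGFβ_iTreg. Mapk9, the gene of the c-Jun kinase JNK2, rose 1.71-fold and 2.08-fold in the same order, and Map2k4, whose product activates JNK, rose 2.24-fold and 1.88-fold. A dimmer Mapk9 probe set rose by 0.77 and 1.11 on the log2 scale. Another changed by 0.16, which was not called, and by 0.79. That probe set was called lower in pltTGFβ_iTreg than in purTGFβ_iTreg (-0.63, limma adjusted p = 0.00757).

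Of 12 cytokine and ligand genes that NFAT and AP-1 are known to bind together, 7 were called between the iTreg groups, all higher in pltTGFβ_iTreg, with a median log2 difference of 0.64. Of all genes 4.11% were called there, 1.54% higher and 2.57% lower. Against Tconv 8 were called in pltTGFβ_iTreg (5 higher, 3 lower) and 7 in purTGFβ_iTreg (1 higher, 6 lower), where 28.5% and 29.3% of all genes were called. Csf2, the gene of the growth factor GM-CSF, read 5.57, 5.56 and 5.48 in pltTGFβ_iTreg, 4.28, 4.04 and 3.90 in purTGFβ_iTreg, and 7.16, 7.10 and 7.20 in Tconv. It was 2.76-fold higher in pltTGFβ_iTreg than in purTGFβ_iTreg (limma adjusted p = 4.21e-06) and lower in both than in Tconv. Il2 and Ifng were higher in pltTGFβ_iTreg than in purTGFβ_iTreg by 4.16 and 4.87 on the log2 scale, and Il4 by 0.56. Against Tconv, log2 changes in pltTGFβ_iTreg and purTGFβ_iTreg were 0.54 and -3.63 for Il2 and -2.49 and -3.04 for Il4. Those of Ifng were 4.57 and -0.29, the last not called. Il4 averaged 4.40 and 3.85 in these groups, below every array's median over all probe sets (4.46 to 4.56).

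**Figure D4:**
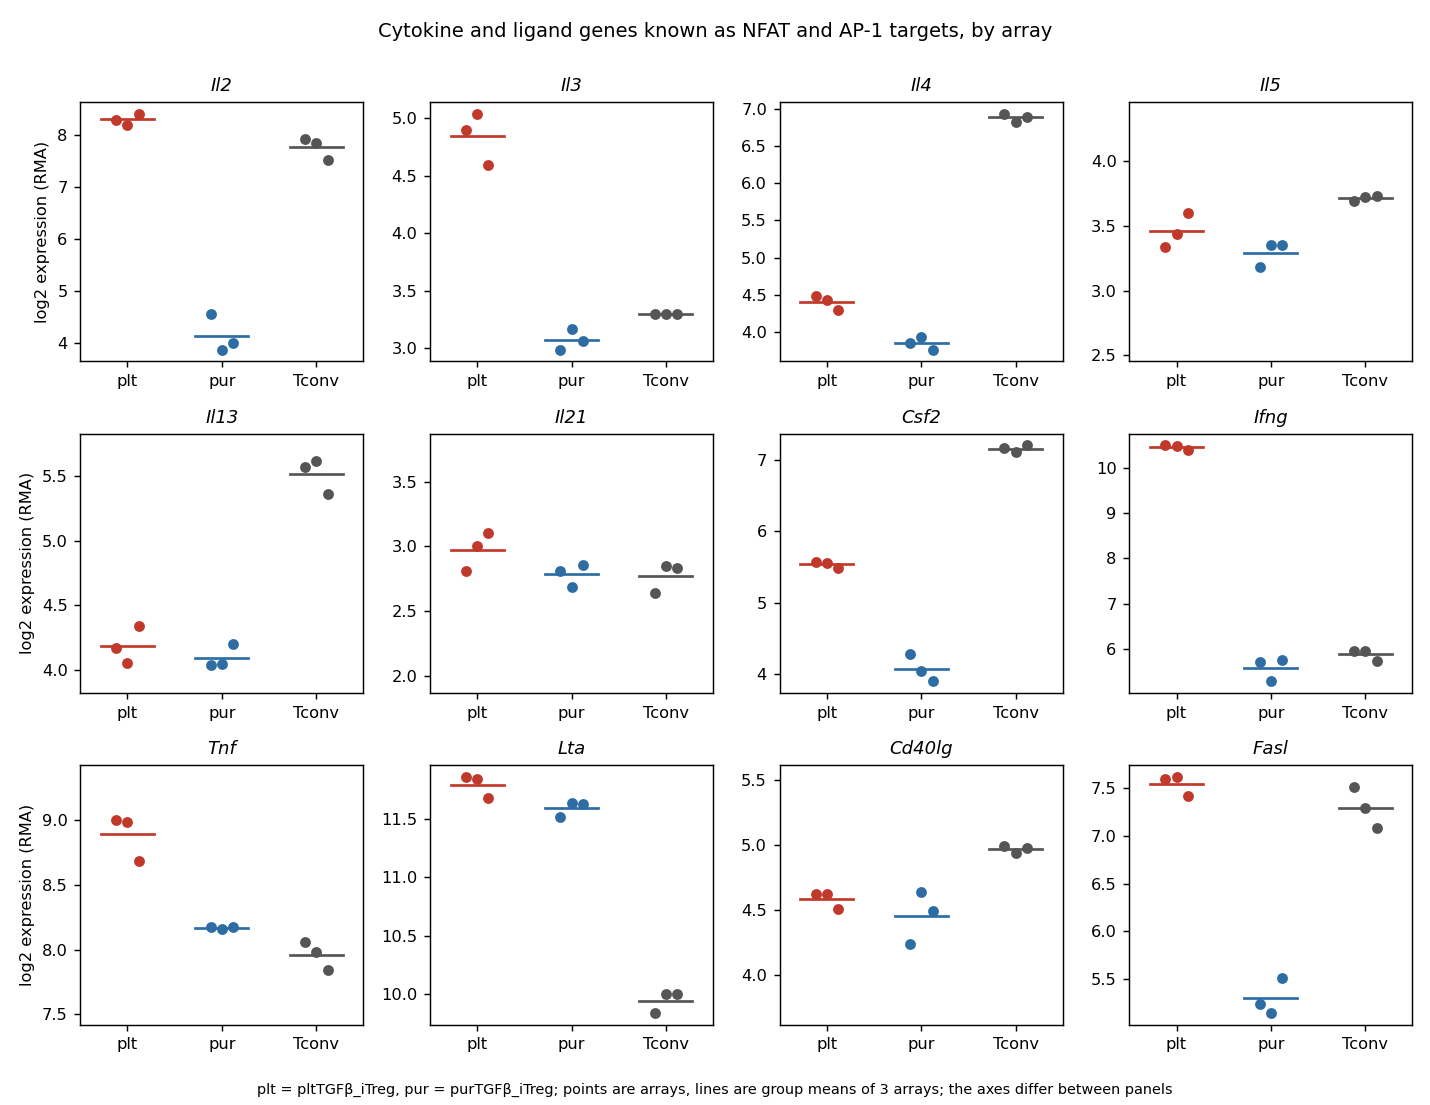
The log2 expression (y axis) of 12 cytokine and ligand genes that NFAT and AP-1 bind is plotted by group (x axis), with 1 point per array and a line at the mean of 3 arrays. Il2, Il3, Csf2, Ifng, Tnf and Fasl are higher on every pltTGFβ_iTreg array than on every purTGFβ_iTreg array.

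Of 14 measured genes that BATF and IRF4 are known to bind, 8 were called in pltTGFβ_iTreg (6 higher, 2 lower) and 8 in purTGFβ_iTreg (5 higher, 3 lower) against Tconv, and 8 between the iTreg groups (4 higher, 4 lower in pltTGFβ_iTreg). The shares of all genes called in these comparisons were 28.5%, 29.3% and 4.11%. Maf, Ccr6 and Ctla4 rose in pltTGFβ_iTreg by 5.12, 2.91 and 2.36 and in purTGFβ_iTreg by 6.48, 3.64 and 1.86 on the log2 scale. Dimmer Maf probe sets changed less, by 0.06 to 2.54 and 0.47 to 4.21 in the same order. The one with the smallest changes was not called. Nfil3, a repressor gene, was 4.34-fold lower in pltTGFβ_iTreg and 5.18-fold lower in purTGFβ_iTreg than in Tconv.

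Of 15 measured genes that NFAT can drive without AP-1, among them inhibitory receptors and genes of anergy, 6 were called in pltTGFβ_iTreg (4 higher, 2 lower) and 9 in purTGFβ_iTreg (4 higher, 5 lower) against Tconv. Between the iTreg groups 7 were called, all higher in pltTGFβ_iTreg, with a median log2 difference of 0.20. The shares of all genes called in these comparisons were 28.5%, 29.3% and 4.11%, the last with 1.54% higher. Lag3, an inhibitory receptor gene, was 4.87-fold lower in pltTGFβ_iTreg and 5.51-fold lower in purTGFβ_iTreg than in Tconv. Other inhibitory receptor genes of the list went the other way. Pdcd1 rose by 0.81 and 0.62 on the log2 scale in the same order. Havcr2 rose by 0.70 in pltTGFβ_iTreg and was not called in purTGFβ_iTreg (-0.13). Cblb, the gene of a ubiquitin ligase that restrains receptor signals, was 1.92-fold higher in pltTGFβ_iTreg than in purTGFβ_iTreg (limma adjusted p = 0.000744), and Nr4a2, an early gene of receptor signals, was 3.06-fold higher (limma adjusted p = 2.72e-07). Dimmer Nr4a2 probe sets differed by 0.01 to 2.02 on the log2 scale, and not all were called.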

How the data were processed

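The authors deposited log2 expression values of 9 arrays, made in Affymetrix Expression Console by Robust Multichip Analysis (RMA), per the series' design text. RMA compresses values near background, and the table has no detection calls. The authors' own tests used Partek Genomics Suite 6.6, per the same text. Of 45101 probe sets, 64 controls were left out. Names came from the platform annotation, and 34741 identifiers were found in RefSeq (GRCm38.p6). Promoters of 9 members were in the table used.

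Each comparison was a contrast of 1 limma 3.58.1 model (R 4.3.3) over all 9 arrays, two-sided and adjusted over 45037 probe sets. With 3 arrays a group an exact test could reach p = 0.1 at best. Intervals are at the 95% level. The number of arrays limits the precision. The members and gene lists were chosen with earlier results of these data known. Named were all members, up to 4 called genes per list with the largest change in any comparison (a few of these are left to the counts), and the 3 genes nearest in pattern to each called member. Marker genes were named as checks, and Pdcd1 and Havcr2 because they went the other way from Lag3. Alternatives were quantile normalization, centred array medians, a filter on the dimmest 40% of probe sets, other variance models, an unmoderated ANOVA contrast, fits on only the groups compared, the replicate number as a block, the average over probe sets of 1 gene, 2 further cutoffs and each array left out in turn, and, added after seeing the data, an exact 1.4-fold cutoff. Figures were drawn with matplotlib 3.10.9 in Python 3.11.15.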

Additional observations from a re-analysis of the deposited data

Results flagged for a closer look

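The limma contrast of pltTGFβ_iTreg with purTGFβ_iTreg, in which the Tconv mean has no part, called 6 of 23 member probe sets. Of all probe sets 3.25% were called. Jun was lower in pltTGFβ_iTreg by both probe sets, with log2 differences of -0.78 for the main one and -0.85 for the other. Fosl2 was higher by 1.17 through its second probe set, while its main one differed by 0.15 and was not called. Nfatc1 was higher through 3 of its 5 probe sets, by 0.64, 0.62 and 0.66, while its main one differed by 0.19 and was not called.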

How the results depend on the processing

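The calls of Jun, Junb and Batf against Tconv, of Fosl2 in purTGFβ_iTreg against Tconv and of Jun between the iTreg groups held under all 17 alternative fits. Jun ranged from 1.74 to 2.45 in pltTGFβ_iTreg and from 2.55 to 3.23 in purTGFβ_iTreg against Tconv, and from -0.81 to -0.78 between the iTreg groups. Of 507 alternative values of the members' fold changes, 481 kept direction and call, 15 became calls and 11 changed sign, and none of these fits lost a call. Causes were not tested.

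Without the fold cutoff, 7 members were called in each comparison with Tconv and 3 between the iTreg groups. At an exact 1.4-fold, chosen after seeing the data, Jund was added in purTGFβ_iTreg (5 members) and Fosl2 in pltTGFβ_iTreg (4) against Tconv, and Batf between the iTreg groups (2). At adjusted p under 0.05 with an absolute log2 change above 1, Jun, Junb and Batf stayed called against Tconv in both iTreg groups. Fosl2 in purTGFβ_iTreg against Tconv (-0.65) was lost, which left 3 members there (1 higher, 2 lower). Between the iTreg groups limma called 0 at that cutoff, and 8 of the 10 members had an unadjusted p under 0.05. The shares of all genes at that cutoff, at that unadjusted p and under the alternative fits were not counted. These counts therefore do not show whether the members differ from genes in general. At the main cutoffs 2 were called after quantile normalization (Jun and Batf) and 3 when the probe sets of a gene were averaged (Jun, Fosl2 at 0.66 and Nfatc1 at 0.51). Leaving out 1 array gave 3 to 4 members in pltTGFβ_iTreg and 4 to 5 in purTGFβ_iTreg against Tconv, and 1 to 2 between the iTreg groups. Jund in purTGFβ_iTreg was called without purTGFβ_iTreg replicate 2 (-0.52) or 3 (-0.50) or Tconv replicate 1 (-0.55). Fosl2 in pltTGFβ_iTreg was called without pltTGFβ_iTreg replicate 2 (-0.52) or 3 (-0.51) or Tconv replicate 1 (-0.54) or 2 (-0.53), after quantile normalization (-0.60) and with averaged probe sets (-0.56). With averaged probe sets Nfatc1 was called in purTGFβ_iTreg against Tconv (-0.82). Fosb could not be fitted once the dimmest probe sets were left out.

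Sign changes came with values that were not called. With averaged probe sets Nfatc2 changed by -0.13 in pltTGFβ_iTreg and -0.18 in purTGFβ_iTreg against Tconv and by 0.04 between the iTreg groups, Nfatc1 by -0.30 in pltTGFβ_iTreg against Tconv, and Irf4 by -0.01 between the iTreg groups. Quantile normalization gave Fos -0.04 and Nfatc1 -0.06 in pltTGFβ_iTreg against Tconv. Irf4 between the iTreg groups ranged from -0.05 to 0.10 over the alternatives, at -0.01 without pltTGFβ_iTreg replicate 3, 0.00 without pltTGFβ_iTreg replicate 1, -0.05 without purTGFβ_iTreg replicate 1 and -0.03 without purTGFβ_iTreg replicate 3. Of the list of other IRF and NFAT genes, those called in pltTGFβ_iTreg against Tconv numbered 3 after quantile normalization and 2 without Tconv replicate 1 or 2 or pltTGFβ_iTreg replicate 1 or 2.

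With the replicate block 3 members were called in pltTGFβ_iTreg and 4 in purTGFβ_iTreg against Tconv and 1 in the comparison of the iTreg groups, as without it. Deviations of same-numbered arrays correlated at 0.19, 0.26 and 0.09 between the iTreg groups, where every array correlated best with its own number. With Tconv they correlated at -0.12 to 0.09. Whether same-numbered iTreg arrays were prepared together is not known, because the labels give only a replicate number. The main fit treats all arrays as unpaired.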
